A study of Mus musculus with 6 samples.

Results

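The wildtype retina of the mouse at postnatal day 17 is described here by the level, the rank and the replicate spread of its array signal. The 3 samples were chosen by their titles, which name them as wildtype replicates 1 to 3, and they are 3 of the 6 samples of the series. All 3 came from male mice labelled Chx10Cre-/-;Atrx flox/y, so these controls carried the floxed Atrx allele on their X chromosome and no Cre transgene. Each sample was total RNA of whole retina pooled from both eyes, and per the labels the lens was taken out through a cut in the cornea before the retina was removed. The strain is not named in the labels. The other 3 samples, from Atrx conditional knockout retina, were not used, and no comparison of genotypes was made. Nothing apart from the replicate numbers says that the samples came from separate animals, so the spread over the 3 arrays is that between these samples and may be technical. With 1 group there was no contrast to test, and all values below are descriptions.

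The retina turns light into nerve signals. Rods, the dim-light photoreceptors, outnumber all other cells of the mouse retina, and cones serve daylight and colour. Both pass their signal through ribbon synapses to bipolar cells, which pass it on to ganglion cells, while horizontal and amacrine cells shape it on the way and Müller glia support the neurons. The retinal pigment epithelium lies against the photoreceptors, recycles their light-sensitive chromophore and stays attached to a dissected retina to a varying extent. In the mouse the eyes have recently opened at this age and the cells of the retina have all been born.

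Each probe set has a log2 expression value that the authors made with RMA, so a difference of 1 is a 2-fold difference in signal. Of the 41345 probe sets of the array, 23521 (56.9%) had exactly 1 gene symbol, and these stood for 22180 genes. A gene with several probe sets was represented by the brightest. Values over these probe sets ran from 1.29 to 13.75, and the array medians were 6.07, 6.09 and 6.08 on wildtype 1, 2 and 3. A probe set was counted as at or above the floor if it read at least 5 on all 3 arrays, which 15652 probe sets (66.5%) did. Among genes the share was 67%, and each list count at the floor below is to be read beside it. Rank and percentile order the signal of the genes by their mean over the 3 arrays. Probe sets differ in how well they bind, so the order is that of signal and not of transcript amount.

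Olfactory and vomeronasal receptor genes, which belong to the nose, gave a reference for probe sets whose transcripts retina is not known to make in quantity. Their 1405 probe sets had a median of 3.44 and a 95th percentile of 5.44, and 108 of them (7.69%) reached the floor. The brightest was Vmn1r233 at 10.90, whose other probe set read 3.10, so a value above the floor is not in itself a sign of the named transcript. Among protein-coding genes 71.8% reached the floor, against 37.3% of long noncoding RNAs and 31.6% of microRNA genes. Small nucleolar RNAs, which guide the modification of ribosomal RNA, stood at a median of 8.91, and 90% of the 80 measured reached the floor. Genes of the X chromosome had a median of 5.37, and 53.6% of the 899 reached the floor.

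The 4 rod markers named for this tissue were among the 40 brightest genes and differed little between arrays. Gnat1, the rod transducin subunit that relays the light signal from the visual pigment, read 13.65, 13.70 and 13.72 on wildtype 1, 2 and 3 and ranked 2 of 22180 genes (mean 13.69 ± 0.035, SD, n = 3). Reep6, a protein of rod membrane traffic, read 12.93, 12.96 and 13.00 and ranked 14. Sag, the rod arrestin that shuts the pigment off, read 12.91, 12.96 and 12.98 and ranked 15. All 4 markers read above the floor on every array, where 67% of all genes reached it, and the labels name the tissue as whole retina. Pde6b, a catalytic subunit of the rod phosphodiesterase, read 12.15, 12.23 and 12.23 and ranked 36 (mean 12.20 ± 0.045, SD, n = 3). In all 4 the lowest value was that of wildtype 1, by at most 0.08.

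The rod phototransduction list was bright as a whole. All 19 measured genes reached the floor, where 67% of all genes did, and all 19 lay in the top 10% of genes by mean. Their median was 11.21, at percentile 99.3, against 6.15 for all genes. Beside Gnat1 and Sag the brightest were Gnb1, the beta subunit that partners it, at 13.28, 13.31 and 13.31, and Pdc, phosducin, which binds the freed beta and gamma subunits, at 12.43, 12.41 and 12.40. Gngt1, the rod gamma subunit, read 9.29, 9.30 and 9.30, the smallest SD of the list (0.0080). Both remaining phosphodiesterase subunits, Pde6a and Pde6g, stood at means of 11.83 and 11.60. The channel subunits that close in light, Cnga1 and Cngb1, stood at 11.21 and 9.80. Of the genes that end the response, Rgs9 stood at 11.58, Grk1 at 11.07 and Rcvrn at 10.96. The guanylate cyclases Gucy2f and Gucy2e restore the messenger, and Gucy2e was the dimmest of the list at 8.97. In bulk tissue such as this, the number of cells of a type and the RNA per cell cannot be told apart.

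Most of the rod genes were slightly lower on wildtype 1. Of the 19, 13 were lowest there, where 36.0% of all genes were, and the list means were 11.21, 11.24 and 11.29 on wildtype 1, 2 and 3. The list means differed by 0.080, and the median range of a single rod gene over the arrays was 0.079. No rod gene spread 2-fold over the 3 arrays.

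Promoter sequences were read for the rod genes because CRX, the homeodomain factor of photoreceptors, is known to bind near them. The windows are the 250 bases before the first listed transcript start in RefSeq (GRCm38.p6), and 13 of the rod phototransduction genes had such a window. The letters TAATCC, a core that CRX recognises, were searched on both strands. They occurred in 7 of these 13 windows (53.8%), against 1725 of the 27025 windows of all genes (6.38%). The 7 genes were Sag, Cnga1, Guca1a, Gucy2f, Cngb1, Gngt1 and Gucy2e, and the windows of the first 3 are shown because they had the brightest signal among them. Capitals mark the match, written as GGATTA where it lies on the opposite strand.
Sag promoter (chr1:87803430-87803679, plus strand): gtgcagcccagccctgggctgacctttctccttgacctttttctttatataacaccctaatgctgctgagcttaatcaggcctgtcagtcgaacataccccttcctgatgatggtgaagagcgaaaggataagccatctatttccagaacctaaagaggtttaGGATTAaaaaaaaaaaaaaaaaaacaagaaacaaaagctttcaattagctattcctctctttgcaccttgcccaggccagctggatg
Cnga1 promoter (chr5:72642753-72643002, minus strand): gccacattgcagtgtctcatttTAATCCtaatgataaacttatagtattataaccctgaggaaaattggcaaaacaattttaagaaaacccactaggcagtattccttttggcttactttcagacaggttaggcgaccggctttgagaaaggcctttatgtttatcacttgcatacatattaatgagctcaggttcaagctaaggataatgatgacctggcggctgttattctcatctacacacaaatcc
Guca1a promoter (chr17:47400607-47400856, minus strand): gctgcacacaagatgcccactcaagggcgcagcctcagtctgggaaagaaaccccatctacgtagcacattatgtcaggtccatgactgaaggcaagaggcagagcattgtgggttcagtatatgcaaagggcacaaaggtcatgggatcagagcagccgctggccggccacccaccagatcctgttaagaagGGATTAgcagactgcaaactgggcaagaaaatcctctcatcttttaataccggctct
The match began 87 bases before the start in Sag, 228 before it in Cnga1 and 57 before it in Guca1a, counted at its first base. The letters also occurred in 5 of 71 windows (7.04%) of the protein-coding genes among the 100 brightest, and in 1 of 15 windows (6.67%) of the outer segment list described next. A match in these windows says only that the letters are present.

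Genes of the outer segment, the stack of discs that holds the visual pigment, were also bright. Of 19 measured, 19 reached the floor and 18 lay in the top 10%, with a median of 10.75. Prph2, which shapes the disc rim, read 12.41, 12.47 and 12.58. Its partner Rom1 stood at 10.66. Unc119, a carrier of lipid-modified transducin, read 12.14, 12.20 and 12.24, and the retinal dehydrogenase Rdh12 read 11.70, 11.85 and 11.88. Impg2, a proteoglycan of the matrix around photoreceptors, was the most variable of the genes named here from this list at 11.42, 10.86 and 11.23, with wildtype 2 lowest. Fscn2, an actin bundler, was the list's dimmest at 7.59.

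Cone genes covered a wider range than rod genes. All 14 measured reached the floor, 7 were in the top 10%, and the median was 8.85. Opn1sw, the short-wavelength cone opsin, read 11.63, 11.63 and 11.72. Opn1mw, the middle-wavelength opsin, read 10.78, 10.97 and 11.07. Cone arrestin Arr3 read 10.64, 10.51 and 10.94, so its arrays differed by 0.43. At the other end of the list, the cone channel subunit Cnga3 stood at 6.36, the nuclear receptor Rxrg at 6.13 and the cone gamma subunit Gngt2 at 6.03, all near the median of all genes. Gnat2, the cone transducin, read 8.38, 8.28 and 8.44. The list means were 8.73, 8.73 and 8.82, with wildtype 3 highest.

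Transcription factors that direct photoreceptor fate were mostly well above the floor. Rorb, an orphan nuclear receptor needed for rods, read 11.38, 11.47 and 11.63. Crx itself read 10.93, 10.97 and 10.96, and Nrl, which selects the rod fate, read 10.11, 10.23 and 10.24. Otx2, which acts upstream of Crx, stood at 9.59. Of the 12 measured, 11 reached the floor and 7 lay in the top 10%. Sall3, a factor of cones and horizontal cells, read 4.88, 5.14 and 5.15 and so missed the floor on wildtype 1.

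The photoreceptor ribbon synapse releases glutamate tonically in the dark. All 17 measured genes of its list reached the floor, 14 lay in the top 10%, and the median was 9.75. Slc17a7, the transporter that fills vesicles with glutamate, read 11.39, 11.54 and 11.50. Stx3, the syntaxin of ribbon synapses, read 11.09, 11.11 and 11.11. Cacna1f, the calcium channel of the terminal, and Cabp4, which tunes it, stood at 9.75 and 10.38. Ctbp2, whose locus encodes the ribbon protein Ribeye, read 9.68, 9.70 and 9.70. Bsn, the ribbon anchor Bassoon, was the dimmest at 6.63.

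**Figure D1:**
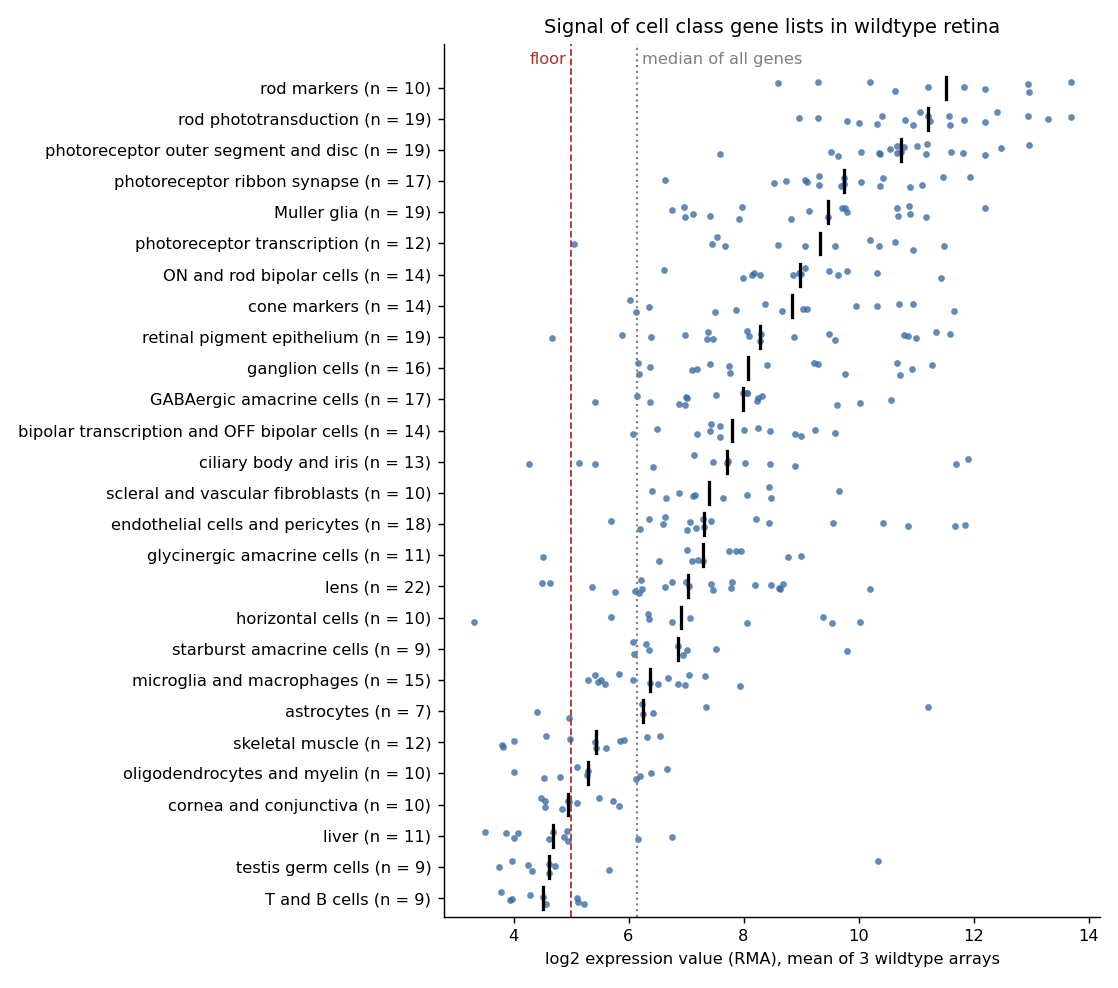
Mean log2 expression value (horizontal axis) of the measured genes of each cell class list, over the 3 wildtype arrays. Each point is a gene, black bars are list medians, the dashed line is the floor of 5 and the dotted line the median of all genes at 6.15. Rod markers have the highest median at 11.52, Müller glia at 9.47 lie above photoreceptor transcription factors at 9.33 and cone markers at 8.85, and lists of liver, testis germ cells and T and B cells the lowest, below the floor; the lens list is drawn from a mean that 1 array dominates.

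Bipolar cells, the relay from photoreceptors to ganglion cells, gave middle to high signal. In the list of ON and rod bipolar cells all 14 measured genes reached the floor, 9 lay in the top 10%, and the median was 8.99. Gnao1, the G protein of the ON response, read 11.36, 11.49 and 11.44. The channel it controls, Trpm1, read 9.37, 9.64 and 9.44, and Grm6, the glutamate receptor that starts the response, read 8.83, 8.95 and 8.79. Prkca, the kinase used to stain rod bipolar cells, stood at 9.64, and Nyx, which holds the receptor complex in place, at 6.62. Bipolar transcription factors and OFF bipolar genes had a median of 7.80. Among these Cabp5, a calcium-binding protein, stood at 9.24 and the factor Vsx1 at 6.49.

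Horizontal and amacrine cell lists had medians from 6.85 to 7.99. Of 10 measured horizontal cell genes 9 reached the floor, with a median of 6.91. Tfap2b, a factor shared with amacrine cells, read 9.97, 10.03 and 10.07, and Calb1, calbindin, read 9.53, 9.47 and 9.61. Gja10, a connexin of horizontal cells, read 3.34, 3.37 and 3.21, below the floor on every array. All 17 GABAergic amacrine genes reached the floor, with a median of 7.99. Calb2, calretinin, was brightest at 10.59, 10.55 and 10.53. The GABA-making enzymes Gad2 and Gad1 stood at 8.05 and 6.98. Among transmitter peptides and enzymes, Vip stood at 8.06, Npy at 7.99 and Th, which makes dopamine, at 6.37. Maf, a transcription factor on this list that also acts in lens, read 7.54, 6.69 and 6.76, with wildtype 1 highest. Starburst amacrine cells make and release acetylcholine, and their marker list had a median of 6.85. The choline transporter Slc5a7 read 7.08, 6.82 and 7.14, and Chat, the synthetic enzyme, 6.26, 6.40 and 6.41. The glycinergic list had a median of 7.29, and its factor Neurod6 read 4.22, 4.60 and 4.73, below the floor.

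Ganglion cells send the output of the retina to the brain. All 16 measured genes of their list reached the floor, 7 lay in the top 10%, and the median was 8.09. Nefl, a neurofilament of their axons, read 11.19, 11.26 and 11.37. Sncg, gamma-synuclein, read 10.93, 10.91 and 10.94, and the surface protein Thy1 read 9.76, 9.77 and 9.76, an SD of 0.0062. The factors Pou4f1 and Isl2 stood lower at 7.42 and 6.16. Opn4, the pigment of the light-sensing ganglion cells that set the body clock, read 6.96, 7.18 and 7.15.

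Müller glia were the brightest class outside photoreceptors in the plot of levels by list. All 19 measured genes reached the floor and 11 lay in the top 10%, with a median of 9.47 and list means of 9.18, 9.17 and 9.17. Glul, which turns glutamate into glutamine, read 12.18, 12.22 and 12.21 and ranked 35. Rlbp1, the retinaldehyde carrier, read 11.14, 11.25 and 11.15. Vim, vimentin, a filament that lens cells also hold, read 11.20, 10.80 and 10.68, with wildtype 1 highest. The water channel Aqp4 stood at 8.82 and the potassium channel Kcnj10 at 7.92. Gfap, the filament of astrocytes and of stressed Müller glia, read 6.54, 6.49 and 6.21, and the optic nerve astrocyte factor Pax2 stood below the floor at 4.41.

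The lists of endothelial cells and pericytes, of microglia and of myelin had medians from 5.29 to 7.31. All 18 measured genes of endothelial cells and pericytes reached the floor, with a median of 7.31. Their list means were 8.04, 8.19 and 8.07, and 15 of the 18 were higher on wildtype 2 than on wildtype 3, where 50.7% of all genes were. The junction gene Cldn5 stood at 7.02 and Pecam1 at 7.30. Microglia, the resident macrophages, had 14 of 15 genes at the floor, where 67% of all genes reached it, and none in the top 10%. The complement gene C1qb read 7.90, 8.05 and 7.87, and the receptor Cx3cr1 read 7.10, 7.02 and 7.05. Of 10 measured myelin genes 6 (60%) reached the floor, near the share of all genes, so this count says little about myelin. The list median was 5.29, against 6.15 for all genes. Cldn11 stood at 6.67, Cnp at 6.40, Mal at 6.20 and Mbp at 6.13, while Mag, Mobp, Olig2 and Opalin did not reach the floor. The mouse retina itself is not myelinated.

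Lists of tissues that a retina sample should not hold gave a measure of stray signal. T and B cell genes had 1 of 9 at the floor, liver genes 2 of 11, testis germ cell genes 2 of 9 and cornea genes 3 of 10. Among all genes 67% reached it. Skeletal muscle had 7 of 12 (58.3%), near the share of all genes, so this count says little about muscle. It was led by Acta1 at 6.55, with a list median of 5.43 against 6.15 for all genes. Krt12, the cornea keratin, read 5.65, 5.88 and 5.97. Odf1, a sperm tail gene, was the exception in brightness at 10.30, 10.43 and 10.27, and its other probe set read 4.74. Genes of scleral and vascular fibroblasts all reached the floor (10 of 10, median 7.40). All 10 were higher on wildtype 2 than on wildtype 3, where 50.7% of all genes were. Dcn, decorin, read 9.45, 9.92 and 9.60 and Col1a1, a collagen chain, read 6.78, 7.14 and 6.70. The ciliary body and iris list had 11 of 13 at the floor, and its brightest, Atp1b2 at 11.90 and Ptgds at 11.69, are also made by cells of the retina.

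The pigment epithelium list was bright but uneven over the arrays. Of its 19 measured genes 18 reached the floor and 8 lay in the top 10%, with a median of 8.28. The list means were 8.27 on wildtype 1, 8.81 on wildtype 2 and 8.57 on wildtype 3. Of the 19 genes 16 were lowest on wildtype 1, where 36.0% of all genes were. Rpe65, the isomerase that remakes the chromophore, read 7.46, 8.89 and 8.48. Lrat, which makes its substrate, read 7.52, 8.94 and 8.48. Rgr, an opsin-like protein of the pigment epithelium and Müller glia, read 10.22, 11.31 and 10.86. These 3 genes spread 2-fold or more, where 0.762% of all genes did and 0.194% did with wildtype 1 lowest, and each ran from lowest on wildtype 1 to highest on wildtype 2.

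The other pigment epithelium genes moved less, mostly in the same order. Ttr, transthyretin, which carries retinol and thyroid hormone, read 11.14, 11.86 and 11.76. The pigment genes Dct, Tyrp1 and Pmel ranged from 11.18 to 11.65, from 10.80 to 11.30 and from 10.60 to 11.12, each highest on wildtype 2. Stra6, the retinol uptake receptor, read 7.71, 8.46 and 8.14. Trpm3, a channel that neurons of the retina also make, read 9.66, 9.53 and 9.59 and did not follow the order, nor did Ezr, ezrin, at 8.32, 7.85 and 7.99. The chloride channel Best1 stayed below the floor at 4.67. How much attached epithelium each sample held was not measured apart from these genes, and its part in the differences was not tested.

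Part of the visual cycle, which remakes the chromophore, runs in photoreceptors and part in the epithelium, and its list held genes of both. Over the 16 measured genes the list means were 8.97, 9.40 and 9.27. Of these genes 14 were lowest on wildtype 1, where 36.0% of all genes were. Rpe65, Lrat, Rdh5, Rgr and Stra6 are on this list and on that of the pigment epithelium, so the lists are not independent. Rbp3, the retinoid carrier made by photoreceptors, read 12.49, 12.50 and 12.47. Abca4, the photoreceptor retinoid transporter, read 10.78, 10.75 and 10.81, and the photoreceptor dehydrogenase Rdh8 read 10.34, 10.36 and 10.37. Their arrays differed by at most 0.06. The epithelial dehydrogenase Rdh5 read 8.49, 9.21 and 8.91, a range of 0.71.

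Promoters of the pigment epithelium list were searched for CATGTG, an E-box that MITF, the master factor of pigment cells, is known to bind, on both strands. It occurred in 5 of 13 windows (38.5%), those of Dct, Oca2, Rpe65, Tyr and Tyrp1, against 12.2% of the windows of all genes. A second E-box, CACGTG, occurred in none of the 13, and in 6.05% of all. Shown are the 2 genes with a match whose values had the widest range, with the match in capitals (CACATG on the opposite strand).
Rpe65 promoter (chr3:159598931-159599180, plus strand): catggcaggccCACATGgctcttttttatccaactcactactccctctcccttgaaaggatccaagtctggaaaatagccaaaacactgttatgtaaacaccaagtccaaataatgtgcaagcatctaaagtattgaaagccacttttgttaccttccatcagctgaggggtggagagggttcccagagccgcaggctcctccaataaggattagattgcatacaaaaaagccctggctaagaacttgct
Tyr promoter (chr7:87493513-87493762, minus strand): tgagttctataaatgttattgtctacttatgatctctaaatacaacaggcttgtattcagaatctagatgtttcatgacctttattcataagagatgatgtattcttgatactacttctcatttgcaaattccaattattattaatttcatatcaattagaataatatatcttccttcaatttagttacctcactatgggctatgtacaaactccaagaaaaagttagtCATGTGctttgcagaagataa
The first base of the match lay 239 bases before the start in Rpe65 and 21 before it in Tyr, whose values were 7.07, 7.69 and 7.33. TAATCC occurred in 4 of the 13 windows (30.8%), those of Best1, Dct, Rgr and Rpe65.

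The arrays agreed closely except for a small set of genes. Across the 23521 probe sets Pearson's r was 0.989 between wildtype 1 and 2, 0.989 between wildtype 1 and 3, and 0.994 between wildtype 2 and 3. These are correlations across probe sets on arrays brought to 1 distribution, and probe sets are not replicates. The median SD over the 3 arrays was 0.102, which is 1.07-fold, and 99% of probe sets had an SD under 0.495. Spread fell with level: the median SD was 0.171 for probe sets with a mean below 4, 0.087 for means from 6 to 8 and 0.056 for means of 10 or more. A range of 1 or more, which is a 2-fold spread, occurred in 183 probe sets (0.778%) and 169 genes (0.762%). Of these genes 94 had a mean below 5, where the values scatter most.

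Of the 75 widely spread genes with a mean of at least 5, 64 were highest on wildtype 1. Only 8 were highest on wildtype 2 and 3 on wildtype 3. Among all genes the shares with such a spread were 0.424% highest on wildtype 1, 0.207% on wildtype 2 and 0.131% on wildtype 3. A range of 2 or more, which is 4-fold, was reached by 31 genes, and in all 31 the highest value was that of wildtype 1.

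**Figure D2:**
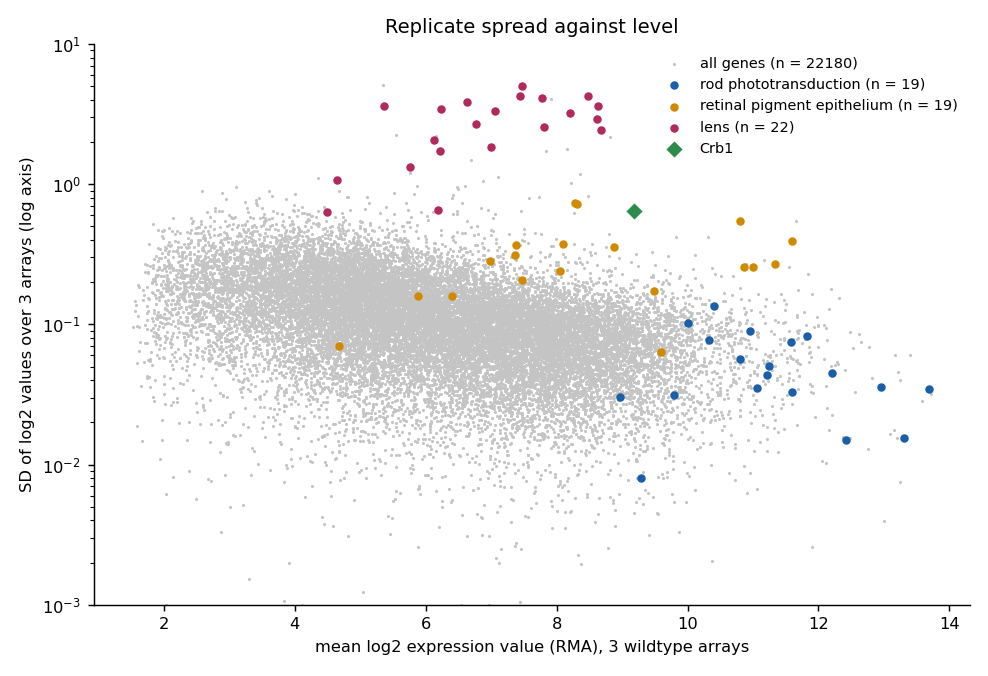
Standard deviation of the log2 values over the 3 wildtype arrays (vertical, log axis) against their mean (horizontal) for 22180 genes in grey, with 3 lists and Crb1 in colour. SDs below 0.001 (4 genes) are drawn at 0.001. Lens genes lie far above genes of the same level, pigment epithelium genes mostly above them and rod genes within them.

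Lens genes made up most of the widest spread. The lens focuses light by means of crystallins, proteins packed to high density in its fibre cells, and its fibres are coupled by connexins and the membrane protein Mip. All 22 measured lens genes spread 2-fold or more and all 22 were highest on wildtype 1, with list means of 10.25, 5.44 and 5.55. Cryaa, an alpha crystallin, read 13.36, 5.54 and 6.54 and ranked 5 on wildtype 1 against 13392 on wildtype 2 and 9725 on wildtype 3. Cryba1, a beta crystallin, read 13.23, 4.01 and 5.18, the widest range of all genes (9.22). The gamma crystallin Crygs read 12.34, 4.98 and 5.01. Other gamma crystallins, such as Crygf at 11.20, 2.32 and 2.53, are near-identical copies of one another, and their probe sets may share signal.

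Wildtype 2 and 3 held little of this signal, but not none of it. Mip read 11.92, 6.40 and 6.28, and Crybb1 12.77, 6.57 and 6.54, above the floor on each array. Crybb2, which neurons of the retina are also known to make, read 11.50, 7.23 and 7.30. Cryab, a small heat shock protein present in many tissues, read 12.37, 9.10 and 9.12 and so stood well above the floor on all 3. The fibre filament gene Bfsp1 read 9.87, 5.48 and 4.94, the connexin Gja3 8.21, 5.24 and 5.19, and Lim2, another fibre membrane protein, 7.28, 4.89 and 5.11. All 16 measured alpha, beta and gamma crystallin genes spread 2-fold or more. With wildtype 1 the list median was 7.03, and without it 5.21. Among the 100 brightest genes of wildtype 1 were 8 genes of the lens list, Mip and 7 crystallins, and among those of wildtype 2 and of wildtype 3 were none.

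Promoters of the lens list were searched for TGCTGA, part of the element that MAF factors, regulators of crystallin genes, are known to bind, again on both strands. It occurred in 12 of 21 windows (57.1%), against 15.8% of the windows of all genes, 3 of 13 (23.1%) of the rod list and 1 of 13 of the pigment epithelium list. Of the other lists, complement genes with 5 of 9 (55.6%) and opsins and light sensors with 4 of 8 (50%) had shares nearly as high. The 2 genes with the widest range are shown, with the match in capitals.
Cryba1 promoter (chr11:77725294-77725543, minus strand): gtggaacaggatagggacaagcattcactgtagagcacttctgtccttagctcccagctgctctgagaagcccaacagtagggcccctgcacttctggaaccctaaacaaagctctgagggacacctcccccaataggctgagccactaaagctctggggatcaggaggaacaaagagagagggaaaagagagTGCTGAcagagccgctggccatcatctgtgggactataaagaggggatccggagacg
Cryaa promoter (chr17:31677681-31677930, plus strand): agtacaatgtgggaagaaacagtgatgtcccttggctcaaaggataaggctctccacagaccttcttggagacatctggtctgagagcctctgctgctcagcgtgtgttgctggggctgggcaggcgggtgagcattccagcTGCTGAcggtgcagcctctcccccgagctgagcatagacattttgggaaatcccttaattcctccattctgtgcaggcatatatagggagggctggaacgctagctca
The first base lay 57 bases before the start in Cryba1 and 108 before it in Cryaa. TAATCC occurred in 2 of the 21 lens windows (9.52%).

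**Figure D3:**
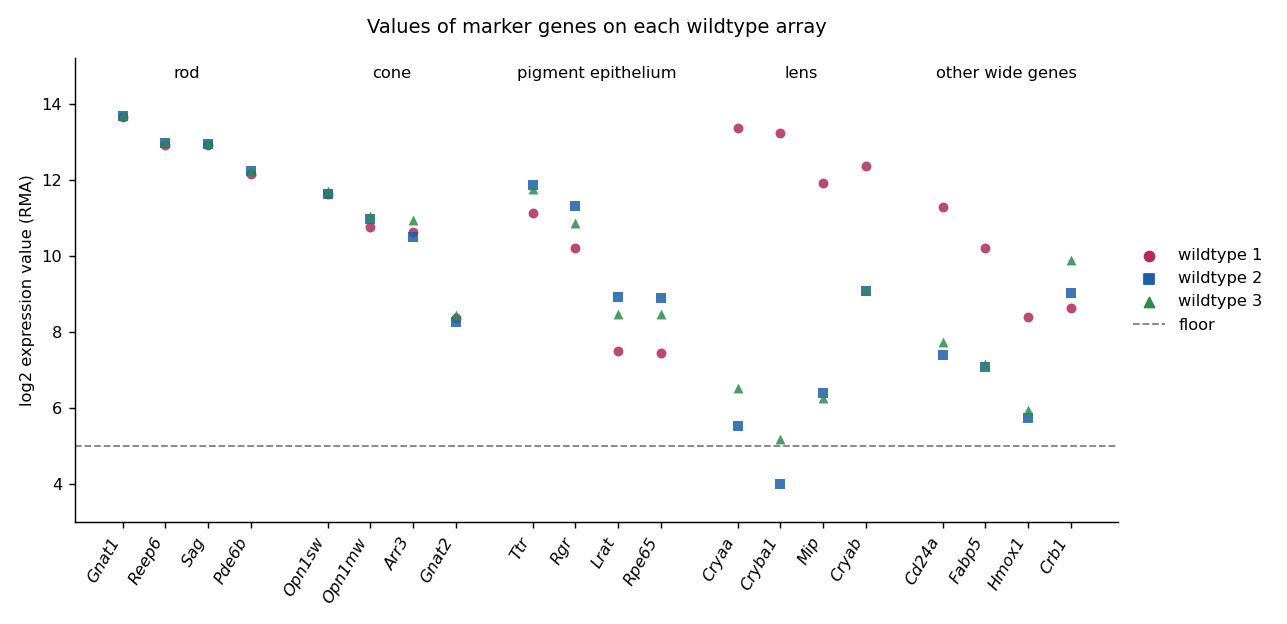
Log2 expression value (vertical axis) of 20 genes on each of the 3 wildtype arrays, by group; the dashed line is the floor of 5. Symbols overlap for rod genes, while wildtype 1 is lowest for the pigment epithelium genes and far highest for the lens genes. Crb1 runs from 8.63 on wildtype 1 to 9.89 on wildtype 3.

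A further 44 genes outside the lens list, with means of at least 5, spread 2-fold or more and were highest on wildtype 1. They included the crystallins Cryga, Crygf and Crygn, which the list did not hold, so the 44 are not all genes of other tissues. Cryga read 12.62, 5.47 and 5.66. Cd24a, a surface glycoprotein of young neurons and of epithelia, read 11.30, 7.39 and 7.74. Lctl, a protein related to lactase, read 8.12, 4.32 and 4.19. Fabp5, a fatty acid carrier, read 10.23, 7.08 and 7.16. Nupr1, a small nuclear protein induced by stress, read 9.81, 6.93 and 6.76. Hmox1, heme oxygenase, also a stress gene, read 8.40, 5.74 and 5.95, and it was the only gene among 18 of the stress list to spread 2-fold. Nid1, a basement membrane protein, read 9.73, 7.77 and 7.59, and Ogn, a small proteoglycan, 9.42, 8.02 and 7.98. In each of the 7 genes named here apart from the crystallins, wildtype 2 and 3 lay within 0.35 of each other. Others of the 44 lay further apart on these 2 arrays, such as a small nucleolar RNA gene at 12.07, 11.87 and 11.03. All 44 were chosen as highest on wildtype 1, so sharing this with the lens list follows from the choice. The part of lens RNA in their values was not tested.

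Without wildtype 1, fewer genes spread 2-fold. Between wildtype 2 and 3, 41 genes (0.185%) differed by 1 or more, against 99 between wildtype 1 and 2 and 105 between wildtype 1 and 3. Only 4 of the 41 had a mean of at least 5. The typical difference was not smaller: the median absolute difference over probe sets was 0.122 between wildtype 2 and 3. It was 0.112 between wildtype 1 and 2 and 0.114 between wildtype 1 and 3. Apart from the 2 crystallins Cryba1 and Cryaa, the largest differences among genes with a mean of at least 6 were those of Vmn1r103, at 6.93 on wildtype 2 and 0.93 lower on wildtype 3, Zfp874a at 6.88, 6.65 and 7.54, and Crb1.

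Crb1, a polarity protein that holds photoreceptors and Müller glia together and is mutated in inherited blindness, read 8.63, 9.04 and 9.89. Its range of 1.26 was wide for its level, with wildtype 1 lowest and wildtype 3 highest. The means of 16 of 47 lists had the same order of arrays, among them rod phototransduction and photoreceptor transcription. Their widest range was 0.14, in the inherited photoreceptor disease list, which holds Crb1 itself. The lens and pigment epithelium lists did not have this order. Crb1 was the only 1 of 31 measured genes of the disease list to spread 2-fold, where 0.762% of all genes did. The others lay close: Tulp1 at 10.97, 11.06 and 11.01, Aipl1 at 10.77, 10.83 and 10.80, Rpgr at 8.16, 8.11 and 8.01. Mertk, the receptor with which the epithelium takes up outer segments, came nearest to Crb1 in this group, at 6.30, 6.62 and 6.95.

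Further genes differed between wildtype 2 and 3 by less than 2-fold. Ell2, an elongation factor of transcription, read 10.63, 10.47 and 9.84. Several belonged to families of near-identical copies, whose probe sets may share signal: Btbd35f1, which at 7.16 on wildtype 3 was 0.84 lower than on wildtype 2, Astx5 at 8.39, 8.56 and 7.85, Srsy at 8.19, 8.37 and 7.75, and Srsx at 6.21, 6.51 and 5.82. All 4 were lower on wildtype 3, as was the receptor gene Vmn1r94 at 6.99, 7.17 and 6.60.

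**Figure D4:**
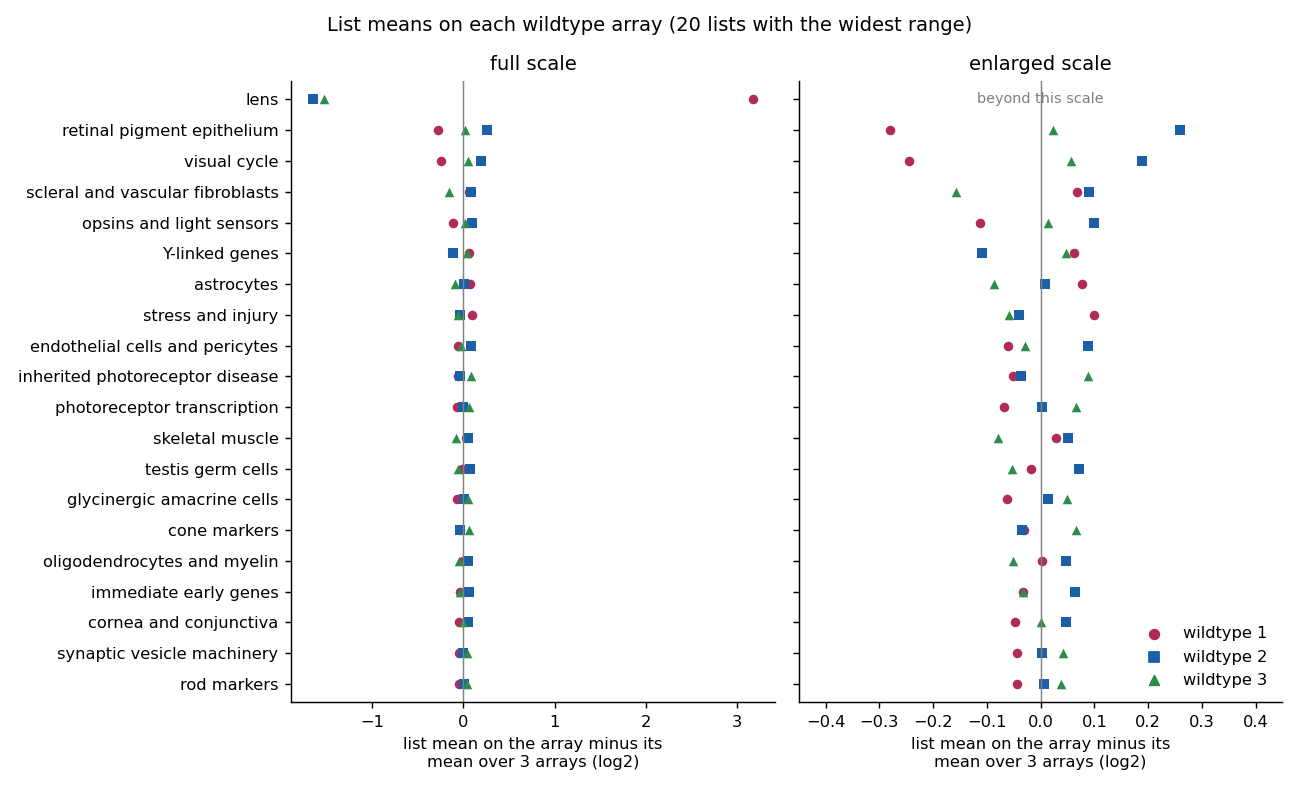
Mean log2 value of a gene list on each wildtype array minus its mean over the 3 arrays, for the 20 lists with the widest range. The left panel shows the full scale, and the right panel is enlarged and leaves out the lens list. Lens, pigment epithelium and visual cycle are the only 3 of 47 lists whose means differ by 0.3 or more between arrays. The pigment epithelium and visual cycle lists share genes, among them Rpe65, Lrat and Rgr.

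Across the 47 lists with at least 3 measured genes, the means of 44 differed by less than 0.3 between arrays. The widest of these 44 was that of the fibroblasts, at 7.72, 7.74 and 7.49. Stable high signal was found in genes of many functions. Of genes with a mean of at least 10, the splicing factor Srsf1 had the smallest SD at 10.38, 10.37 and 10.37. Ddb1, a DNA damage binding protein, read 10.91, 10.92 and 10.91, and Hnrnpk, which binds RNA, 11.06, 11.06 and 11.07. A retinal gene in that group was Gabrr1, a GABA receptor subunit of bipolar cells, at 10.01, 10.02 and 10.02.

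Many energy genes were bright, as were housekeeping genes, with a median of 10.32, and cytosolic ribosomal protein genes, with a median of 9.27. Photoreceptors burn much energy on ion pumping and make lactate even in oxygen. The 10 measured mitochondrially encoded genes had a median of 13.16, and 9 of them were among the 100 brightest. ND4, a subunit of complex I, read 13.62, 13.57 and 13.57 and ranked 3, and ND6 stood lowest at 10.44. Of 23 nuclear genes of the respiratory chain all reached the floor, with a median of 9.18. Cox6a1, of complex IV, read 12.56, 12.70 and 12.67, and Atp5b, of ATP synthase, 12.16, 12.23 and 12.23. Glycolysis genes had a median of 10.36, with Gapdh at 13.07, 13.10 and 13.08 and Pkm at 12.36, 12.39 and 12.39. Hk1 stood at 9.65, Hk2, the hexokinase of photoreceptors, at 8.03, and Hk3 below the floor at 4.76. The list of hexokinase and lactate handling genes had a median of 7.92. Bsg, basigin, the partner of lactate carriers, read 12.15, 12.22 and 12.14, and Slc16a1, 1 of those carriers, 10.68, 10.79 and 10.89. The related carriers Slc16a3, Slc16a7 and Slc16a8 stood lower at 7.97, 7.49 and 5.88.

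Synapses fill the plexiform layers of the retina. Of 20 measured genes of the synaptic vesicle list all reached the floor and 13 lay in the top 10%. Snap25, which drives vesicle fusion, read 12.08, 12.09 and 12.40, with wildtype 3 highest. The complexins of ribbon synapses, Cplx4 and Cplx3, stood at 11.33 and 10.80, and those of conventional synapses, Cplx1 and Cplx2, at 9.27 and 8.61. Stx1a, the syntaxin of conventional synapses, stood at 7.13. Among glutamate receptors the median was 6.97, with the AMPA receptor subunit Gria2 brightest at 9.80. GABA and glycine receptors had a median of 8.25. All 3 rho subunits of the retina's ionotropic GABA receptors were in the top 10%, with Gabrr2 at 9.20 and Gabrr3 at 9.04. Gabra6, a subunit of the cerebellum, stood at 3.42.

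Clock, stress and growth genes differed in level. Of 18 clock genes all reached the floor: Clock stood at 10.81, Arntl at 9.94, its output gene Dbp at 10.70, and Npas2 at 5.93. Immediate early genes, which neurons switch on with activity, had a median of 6.69, with Btg2 at 8.84, Fos at 7.38 and Egr3 at 5.12. Cell cycle genes had a median of 5.48. Pcna, which also serves DNA repair, stood at 8.99, while Top2a and Bub1 stood below the floor at 4.65 and 3.94. All 18 measured genes of the stress and injury list reached the floor, where 67% of all genes did. Among injury genes Lcn2 stood at 6.99. Edn2 stood at 5.22, below the 95th percentile of the nose receptor probe sets at 5.44. The brightest of the list was the stress factor Atf4 at 9.89.

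Noncoding and sex-linked genes served as checks of the labels. Malat1, an abundant nuclear RNA, read 12.44, 12.35 and 12.41. Xist, which silences an X chromosome in females, read 3.36, 3.56 and 3.60, below the floor. The Y-linked genes Eif2s3y, Uty and Kdm5d read 7.94, 7.65 and 7.58 in the mean. Of the other measured Y-linked genes, Sry stood at 5.23, and Usp9y read 3.60, 3.26 and 3.36, below the floor. The labels give the sex as male. Mir124-2hg, the host RNA of a neuronal microRNA, stood at 10.12. The sensory microRNA genes Mir96, Mir182 and Mir183 stood at 6.67, 4.93 and 4.77. Atrx, the chromatin remodeller that the series removes in its other group, read 9.04, 8.86 and 9.17 here, and its partner Daxx 7.41, 7.66 and 7.42.

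Among the 100 brightest genes 78 were protein coding, where 18961 of all 22180 genes were. Another 20 were small RNAs, 12 of them small nucleolar RNAs, of which 80 were measured. Of the 100, 15 were on a photoreceptor list, among them 8 of the 19 measured rod phototransduction genes. The brightest of the 100 was Rn7sk, a small nuclear RNA that restrains transcription elongation, at 13.71, 13.75 and 13.68. The gene at rank 100 stood at 11.58, and the median range of these genes over the arrays was 0.102. In the top 100 of all 3 arrays at once were 84 of them. Of the 40 brightest genes other than small RNAs and predicted loci, 9 were on a photoreceptor list. The others included Eif4a1 of translation at 13.40, the tetraspanin Cd81 at 12.61, the RNA helicase Ddx5 at 12.55 and the neuronal calmodulin partner Pcp4 at 12.00.

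A gene's level depended on the probe set that stood for it. Of 1082 genes with several probe sets, 763 (70.5%) had probe sets whose means differed by 1 or more, and the median difference was 1.81. Syp, synaptophysin, read 11.46 with the brighter probe set and 4.51 with the other. For Slc2a1, the glucose carrier, the values were 11.67 and 5.84, for Eif4a1 13.40 and 7.37, and for the small GTPase Cdc42 10.63 and 4.58. The brighter value stands for each gene throughout.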

How the data were processed

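Total RNA of whole retina was hybridised to Affymetrix mouse gene arrays, 100 ng of RNA per sample per the labels' protocols. The authors deposited 1 log2 expression value for each probe set and array. The method named in the submitters' processing notes is RMA. It subtracts background, brings all arrays to 1 distribution by quantile normalization and combines a set's probes into 1 value, which leaves low values compressed. Which software and version ran it, and on which genome build the array was annotated, is not given in the sources used here. Probe sets with exactly 1 gene symbol in GEO's platform annotation (23521, of which 23328 matched the RefSeq gene table of GRCm38.p6) were kept, without further normalization. Symbols can be old. The only 3 arrays used were the wildtype ones, and their number limits the precision.

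Mean, SD, range, rank and percentile were computed with Python 3.11.15, pandas 2.3.3 and numpy 2.4.6, and figures were drawn with matplotlib 3.10.9. No test was run, since there is 1 group. The procedure was tested on simulated data. A total of 48 gene lists with 779 entries were used, and 690 entries were measured; red blood cells had 2 measured genes and are not described. Entries without such a probe set were not analysed here. Named genes are the 4 given markers and Atrx, list members, the 40 brightest, the 30 with the widest range, the 30 with the largest difference between wildtype 2 and 3 (mean at least 6), the 20 with the smallest SD (mean at least 10) and the 15 whose probe sets differ most, without predicted loci and small RNAs. Rn7sk and the microRNA genes fall outside that rule and were chosen after their values were seen. The samples, lists and rules were chosen with earlier results of these data known. The alternatives were other floors and spread thresholds, a second quantile normalization, array centring, averaging the probe sets of each gene and leaving out each array.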

Additional observations from a re-analysis of the deposited data

How the results depend on the processing

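Leaving out each array in turn changed the spread most. The number of probe sets spread 2-fold or more, 183 over all 3 arrays, lay between 43 without wildtype 1 and 116 without wildtype 2. The median SD lay between 0.079, without wildtype 3, and 0.086, without wildtype 1, against 0.102. The mean Pearson r lay between 0.989 and 0.994 against 0.991. The number of lists whose means differed by 0.3 or more lay between 0, without wildtype 1, and 3. A range over 2 arrays is narrower than over 3 by construction. A spread of 1.5-fold held for 1261 probe sets and 1 of 4-fold for 37. Among probe sets with a mean of at least 5, 85 were spread 2-fold, the median SD was 0.0862 and r was 0.984. The count at the floor was 11621 with a floor of 6 and 19711 with a floor of 4. The median of 39 of 47 lists lay above that of all genes, and 38 or 39 did under the alternatives run. The 1 list that changed sides was lens, whose median of 7.03 fell to 5.21 without wildtype 1 and lay at up to 7.89 without another array, beside 6.15 for all genes. Of 282 list medians under the alternatives, 13 others moved by more than the SD over the arrays. Of 376 list shares at the floor 18 changed by more than 1.5 times, as did 72 of 282 ranges of list means. No paired analysis was possible because the results come from 1 group and from no test.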

Other observations

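The 16010 probe sets without a gene symbol in the annotation used here also gave signal. Their median was 4.94, 43.9% reached the floor, and 512 had a mean of at least 10, beside 609 of the 23521 with exactly 1 symbol. They scattered more: 1192 (7.45%) spread 2-fold or more over the 3 wildtype arrays, beside 0.778% of those with 1 symbol, and their median SD was 0.180 beside 0.102. What they measure was not analysed here. The 1814 probe sets with several symbols had a median of 6.15, and 0.717% of them spread 2-fold or more.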
